A study of Mus musculus with 6 samples.

Results

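Interferon-stimulated genes are the genes that cells switch on when interferon reaches them. The set described here holds 44 of the 24495 gene symbols in the count table, chosen by name as type I and type II interferon-induced genes, with guanylate-binding proteins and antigen presentation genes left out. All 44 symbols were in the table, and 39 had enough counts to be tested among 14855 genes. The members were sorted by role into 4 sensors of foreign nucleic acid, 4 transcription factors, 8 genes of ISG15 conjugation and of ubiquitin or ADP-ribose transfer, 23 effectors and 5 other induced genes.

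RNA was measured in 6 libraries of cultured spermatogonial stem cells, which sustain sperm production, derived from DBA2 mouse testes at postnatal days 5 to 8. The treated group, 3 libraries, received EPZ5676 (pinometostat) at 2 uM for 2 weeks, and the control group, 3 libraries, received 0.2% ethanol for the same time. EPZ5676 is a small-molecule inhibitor of DOT1L, the methyltransferase of histone H3 lysine 79. The series calls the libraries biological triplicates, while the labels name no animals, lines or days behind them, so p-values measure the spread between these libraries, some of which may be technical.

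Interferons bind receptors that activate the kinases JAK1, TYK2 and JAK2. In the type I pathway a complex that holds STAT2 and IRF9 then binds interferon-stimulated response elements (ISREs) in promoters, and type II interferon acts through gamma-activated sites (GAS) and induces IRF1. RIG-I-like sensors detect double-stranded RNA and induce interferon, and many sensors are themselves interferon-induced, so that a low constitutive level is common in cells that have met no virus.

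Gene counts totalled 17784332 to 54645903 per library, the largest being EPZ5676 replicate 2. The labelled cell type was checked by 20 markers of undifferentiated germ cells, all of which were tested. Levels are given as CPM, read counts scaled to library size after TMM normalisation. Over the 6 libraries these markers ran from Dazl at 1732 CPM down to Utf1 at 4.92 CPM. Between them lay Ddx4 at 656, Zbtb16 at 493, Gfra1 at 60.8 and Nanos2 at 10.7 CPM. Markers of other testis cell types were present at lower sums. The 10 macrophage markers summed to 15.9 to 21.6 CPM with EPZ5676 and 18.1 to 21.5 CPM with ethanol, from Cd68 at 9.90 down to Adgre1 at 0.254 CPM, and the 9 Sertoli cell markers in the table to 26.6 to 37.1 and 29.0 to 44.6 CPM, from Wt1 at 26.4 down to Fshr at 0.0140 CPM. The 10 endothelial markers, led by Flt1 at 25.4 CPM, summed to 55.6 to 66.1 and 63.1 to 72.3 CPM, and the 7 peritubular and smooth muscle markers, led by Acta2 at 29.8 CPM, to 58.9 to 95.5 and 59.3 to 147 CPM. The 6 Leydig cell markers summed to 5.52 to 6.87 and 7.93 to 10.4 CPM, nearly all from Star, and Lhcgr had no count in any library. Fibroblast markers were present, with 28 genes summing to 1668 to 2964 CPM, and both replicate 2 libraries were highest for them, with sums of 2207 CPM (EPZ5676) and 2964 CPM (ethanol). The inhibitor's target gene, Dot1l, was at 251, 279 and 199 CPM with EPZ5676 and at 198, 205 and 202 CPM with ethanol, which does not check the drug, since the drug acts on the enzyme.

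The promoters of the members carried interferon motifs more often than promoters at large. RefSeq windows of 250 bases before to 50 bases after a gene start (GRCm38.p6) were found for 34 of the 44 symbols. The ISRE core, GAAA repeated after a gap of 2 bases, searched on both strands, lay in 15 of these 34 genes (44.1%), against 3.99% of all 27025 genes with a window. The GAS core TTCNNNGAA, which reads the same on both strands, lay in 10 of 34 (29.4%) against 9.55%. Among tested members, the median log2 fold change of EPZ5676 against ethanol in the fit with replicate pairing was -0.24 for the 13 with an ISRE core and -0.22 for the 18 with a window and without one. Tested members without a window are in neither group: Usp18, Mx2, Parp9, Parp14, Zbp1, Dhx58, Mx1 and Rtp4. Their values ran from -0.62 (Mx2) to 0.0049 (Rtp4) in that fit. The windows below are those of the 6 members with an ISRE core and the smallest p in that fit; capitals mark the ISRE cores, and all sequences run 5′ to 3′ on the strand of the gene.
Igtp, chr11:58199306-58199605, plus strand: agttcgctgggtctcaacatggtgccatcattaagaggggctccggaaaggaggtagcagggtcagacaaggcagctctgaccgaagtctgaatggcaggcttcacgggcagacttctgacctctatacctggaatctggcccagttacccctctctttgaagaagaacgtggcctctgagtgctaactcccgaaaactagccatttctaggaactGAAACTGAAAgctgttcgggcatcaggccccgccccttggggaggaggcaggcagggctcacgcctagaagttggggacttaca
Irgm1, chr11:48871371-48871670, minus strand: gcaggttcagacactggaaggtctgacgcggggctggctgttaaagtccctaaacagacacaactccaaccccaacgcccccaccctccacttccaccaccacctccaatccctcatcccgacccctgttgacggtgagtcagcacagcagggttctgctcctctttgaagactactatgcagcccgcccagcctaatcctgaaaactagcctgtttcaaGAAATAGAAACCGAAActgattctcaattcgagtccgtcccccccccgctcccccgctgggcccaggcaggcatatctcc
Isg15, chr4:156200769-156201068, minus strand: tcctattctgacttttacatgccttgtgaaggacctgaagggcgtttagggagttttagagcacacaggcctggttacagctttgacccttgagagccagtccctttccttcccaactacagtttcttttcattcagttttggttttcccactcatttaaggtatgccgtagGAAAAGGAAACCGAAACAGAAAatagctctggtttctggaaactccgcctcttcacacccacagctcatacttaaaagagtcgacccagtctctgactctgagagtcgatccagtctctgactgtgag
Oas1a, chr5:120907476-120907775, minus strand: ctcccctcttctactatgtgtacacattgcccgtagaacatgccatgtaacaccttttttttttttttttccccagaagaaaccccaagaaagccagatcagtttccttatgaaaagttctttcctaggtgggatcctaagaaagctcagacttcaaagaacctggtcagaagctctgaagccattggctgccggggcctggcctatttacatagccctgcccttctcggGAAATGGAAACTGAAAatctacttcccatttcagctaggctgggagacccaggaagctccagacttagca
Rsad2, chr12:26456403-26456702, minus strand: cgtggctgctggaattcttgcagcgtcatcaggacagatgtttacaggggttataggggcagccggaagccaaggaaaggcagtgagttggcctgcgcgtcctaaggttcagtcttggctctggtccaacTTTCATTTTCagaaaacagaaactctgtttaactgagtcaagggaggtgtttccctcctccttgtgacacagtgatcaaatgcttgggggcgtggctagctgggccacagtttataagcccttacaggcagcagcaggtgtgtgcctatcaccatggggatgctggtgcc
Stat2, chr10:128270248-128270547, plus strand: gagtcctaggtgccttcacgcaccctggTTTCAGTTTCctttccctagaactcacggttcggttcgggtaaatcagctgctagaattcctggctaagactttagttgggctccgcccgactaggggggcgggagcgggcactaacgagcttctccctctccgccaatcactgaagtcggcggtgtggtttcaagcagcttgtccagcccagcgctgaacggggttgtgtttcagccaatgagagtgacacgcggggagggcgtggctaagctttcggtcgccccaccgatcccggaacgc
The cores of Igtp, Irgm1 and Oas1a started 34, 30 and 20 bases upstream of the gene start, and those of Isg15 78 bases upstream. Isg15 had 3 cores that overlapped, and Irgm1 and Oas1a had 2 each. The core of Stat2 lay 222 bases upstream and that of Rsad2 120 bases upstream, both in the reverse orientation. A match of letters is a description of the window and not of a bound factor.

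Most tested interferon-stimulated genes lay below the median level of all tested genes in these cultures. Levels were compared between genes as CPM per kilobase of exon, with exon lengths from GENCODE M21, a different build from the authors' mm9. The median of the 39 tested members was 3.085 CPM per kb against 7.14 for all tested genes, and 14 of the 39 lay above that median. Below 1 CPM per kb lay 7 of the 39, a share similar to the 2912 of 14499 tested genes with a length. Irf1, the transcription factor gene that interferon gamma induces most directly, stood highest at 132 CPM per kb, and the next members were Ifitm2, Ifitm3, Bst2 and Adar at 37.3, 31.0, 30.4 and 29.7 CPM per kb. The 4 sensors all lay below the median of all genes, with Zbp1 highest at 6.91 and Ddx58 lowest at 0.797 CPM per kb.

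**Figure D1:**
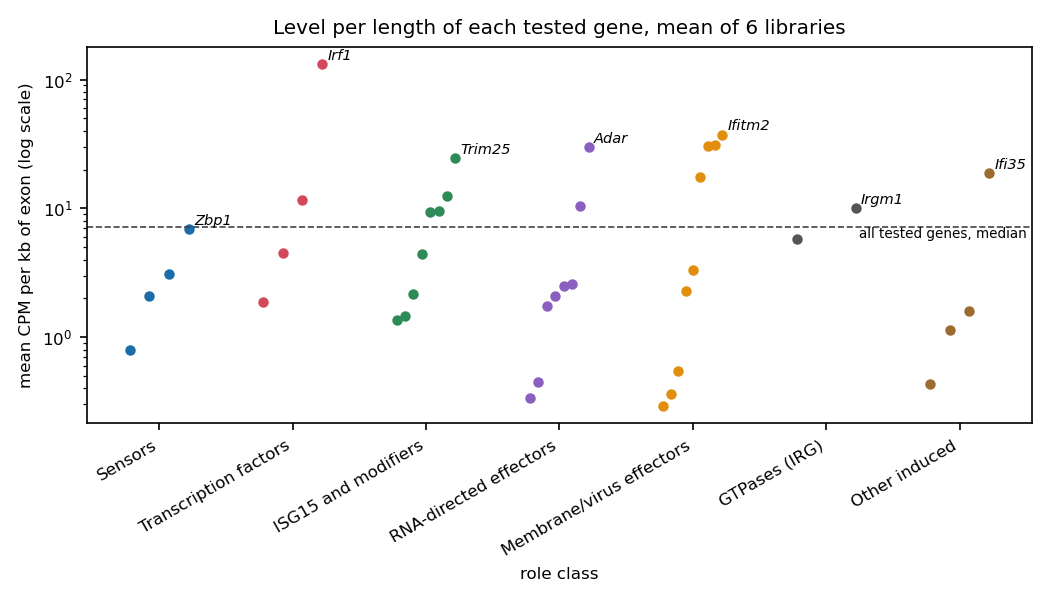
Level of each tested interferon-stimulated gene, as mean CPM per kilobase of exon over 6 libraries on a log axis, by role class; each point is a gene, the highest of each class is named, and the dashed line is the median of all tested genes. Irf1 stands at 132 CPM per kb, and the sensors sit below the dashed line.

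The 5 members that could not be tested had few counts in every library. Over the 6 libraries, Oas2 and Iigp1 had 6 counts each, Ifit3 had 24, Oas3 37 and Ifi44 58. Of the 37 counts of Oas3, 23 came from EPZ5676 replicate 2, the deepest library. The ligands had few counts too: of 21 interferon genes, 13 had no count in any library, and the other 8 had at most 3 counts each over all 6. A count of 0 in a library allows up to 3 counts, so transcription below that level was not detectable. Many of the ligands are Ifna paralogs, and reads that match several of them may have been left uncounted. No source used here says how such reads were treated.

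Most tested members had lower values with EPZ5676, by modest amounts, and none passed the test over all genes. Of the 39, 33 (84.6%) had a negative log2 fold change, against 51.7% of all genes, and the median was -0.26 (1.20-fold) against -0.0066 for all genes. The members were chosen with earlier results of these data known, so their shares beside those of all genes are a description. The named genes with the lowest values were Mx2, Igtp and Usp18, at -0.64, -0.64 and -0.59, and Ifit2 had the highest, at 0.80. By edgeR (quasi-likelihood, Benjamini-Hochberg adjusted) 0 members passed, as did 0 of all genes (0% in either direction). At an unadjusted p under 0.05 the test gave 8 members lower and 1 higher, against 3.57% and 3.84% of all genes.

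Libraries with the same replicate number deviated together, so values from a fit that blocks on replicate number stand beside these. With the block, 0 members passed, against 0.33% of all genes lower and 0.323% higher, and the smallest adjusted p values were 0.0519 for Igtp, 0.0523 for Ifi35 and 0.0671 for both Parp9 and Parp14. At an unadjusted p under 0.05, 18 members were lower (9.51% of all genes) and 1 was higher, Ifit2 (9.01%). Limma-voom gave 0 members, with 0% of all genes. DESeq2 called 1 member lower (Igtp), against 0.189% of all genes lower and 0.148% higher, and DESeq2 with the block 4 lower (Igtp, Ifi35, Parp9 and Parp14), against 1.54% lower and 1.32% higher of the 10247 genes it gave an adjusted p. The blocked edgeR fit called 9 members lower without replicate 2 in both groups, against 2.91% of all genes lower and 2.45% higher. It called 4 lower without replicate 3, against 1.84% lower and 3.26% higher, and 0 without replicate 1, against 0%. None of these fits called a member higher.

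The groups did not overlap, with EPZ5676 lower, for 10 of 39 members against 7.64% of all genes, and with EPZ5676 higher for 1 against 7.22%. Within replicate pairs, 22 members were lower in all 3 pairs (22.3% of all genes) and 2 were higher in all 3, Irf7 and Ifit2 (19.5%). The heat map of members by library shows both patterns, the difference between treatments and the low replicate 2 values of several genes.

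**Figure D2:**
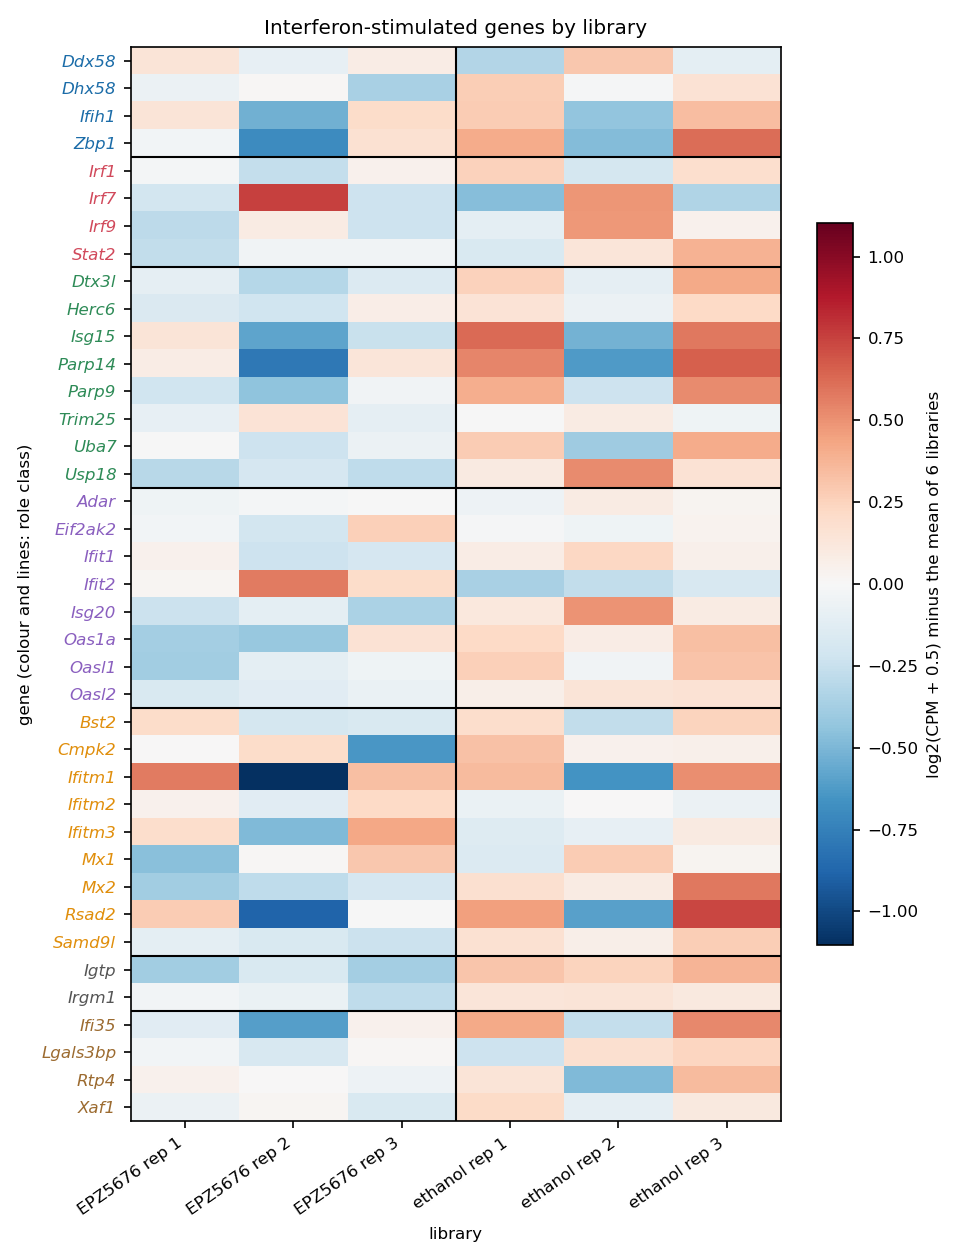
Level of the 39 tested members (rows, grouped by role class) in 6 libraries (columns), as log2(CPM + 0.5) minus the gene's mean over the libraries; red is above and blue below that mean. Igtp, Usp18 and Mx2 are blue in all 3 EPZ5676 columns and red in all 3 ethanol columns, Ifit2 shows the reverse, and Parp14, Rsad2 and Ifitm1 are lowest in both replicate 2 columns.

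Of the 4 sensors, Zbp1 had the lowest value. Ifih1, which encodes the long double-stranded RNA sensor MDA5, was at 18.2, 11.2 and 18.9 CPM with EPZ5676 and 20.03, 12.0 and 20.9 CPM with ethanol (replicates 1, 2 and 3, in this order throughout). The groups overlapped, and both replicate 2 libraries were the lowest. Zbp1, a sensor of Z-form nucleic acid that can start necroptosis, was at 13.9, 8.58 and 16.03 CPM against 19.02, 10.1 and 22.1 CPM. Zbp1 was lower with EPZ5676 in every pair, by a log2 fold change of -0.39 ± 0.10 (SE) in the blocked fit (edgeR adjusted p = 0.122). Dhx58, which encodes the regulator LGP2, was at 4.71, 4.97 and 3.75 CPM against 6.05, 4.87 and 5.55 CPM, and the groups overlapped at replicate 2. Ddx58, which encodes RIG-I, was the only sensor with a positive value, 0.08 ± 0.24 without the block, on 2.34 to 3.86 CPM; without ethanol replicate 1 it was -0.07. The median of the 4 sensors was -0.22.

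Among the transcription factors, the parts of the type I complex and Irf1 were slightly lower and Irf7 was not. Irf1 was at 429, 362 and 451 CPM with EPZ5676 and 519, 380 and 495 CPM with ethanol. The groups overlapped, and each pair differed in the same direction, with a blocked log2 fold change of -0.16 ± 0.06 (edgeR adjusted p = 0.21). Stat2, the type I-specific STAT, was at 41.3, 48.7 and 48.6 CPM against 44.5, 55.0 and 65.3 CPM, and Irf9, its DNA-binding partner, at 11.1, 14.6 and 11.6 CPM against 12.7, 19.3 and 14.2 CPM. Both were lower in every pair while the groups overlapped, with blocked values of -0.24 ± 0.08 and -0.30 ± 0.10. Irf7, the factor that amplifies interferon alpha genes, was at 3.58, 7.42 and 3.51 CPM against 2.90, 6.10 and 3.23 CPM. Irf7 was highest in both replicate 2 libraries, and its value of 0.28 ± 0.38 without the block turned to -0.20 without EPZ5676 replicate 2. The class median was -0.21, close to that of the sensors.

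The genes of ISG15 conjugation and of ubiquitin or ADP-ribose transfer held the lowest class median among classes with more than 2 tested members, -0.42, and all 8 had negative values. Parp9 encodes a macrodomain protein, Dtx3l its E3 ubiquitin ligase partner and Parp14 a mono-ADP-ribosyltransferase, and the 3 genes are neighbours in the genome. Parp9 was at 27.5, 23.3 and 31.1 CPM with EPZ5676 and 42.5, 27.3 and 46.2 CPM with ethanol. Parp14 was at 91.6, 50.04 and 94.8 CPM against 126, 55.9 and 137 CPM. Dtx3l was at 23.1, 19.9 and 22.2 CPM against 29.6, 23.1 and 33.2 CPM. All 3 were lower with EPZ5676 in every pair, the differences were smallest in pair 2, and Dtx3l alone had groups that did not overlap. Blocked log2 fold changes were -0.47 ± 0.10, -0.39 ± 0.08 and -0.38 ± 0.10 for Parp9, Parp14 and Dtx3l, with adjusted p of 0.0671, 0.0671 and 0.107 in edgeR's test. Parp9 and Dtx3l share 367 exonic bases on opposite strands in GENCODE M21, and no source used here says whether the counting used strand, so their counts may not be independent.

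In the ISG15 cycle, the modifier and its protease had the lowest values. Isg15, the ubiquitin-like modifier itself, was at 7.57, 4.37 and 5.65 CPM with EPZ5676 and 10.8, 4.59 and 10.4 CPM with ethanol, with low values in both replicate 2 libraries. Usp18, which removes ISG15 and also blocks the type I receptor, was at 2.92, 3.21 and 2.97 CPM against 4.02, 5.54 and 4.22 CPM. The Usp18 groups did not overlap, and its blocked value was -0.60 ± 0.16 (edgeR adjusted p = 0.124); for Isg15 the value was -0.50 ± 0.17. Uba7, the activating enzyme of ISG15, and Herc6, its ligase in mice, had blocked values of -0.23 ± 0.18 and -0.22 ± 0.13. Trim25, a ligase that activates RIG-I, was at 133, 157 and 131 CPM against 141, 150 and 136 CPM, a blocked value of -0.02 ± 0.06, with no consistent direction over pairs.

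The RNA-directed effectors, 8 tested of 11, held 5 genes with lower values in every pair, 2 with values near 0 and Ifit2 on the other side. Oasl2, of the oligoadenylate synthetase-like family, was at 28.6, 29.4 and 30.6 CPM with EPZ5676 and 33.6, 35.5 and 36.1 CPM with ethanol. Its paralog and neighbour Oasl1 was at 4.04, 4.99 and 5.21 CPM against 6.61, 5.26 and 6.84 CPM. Neither gene's groups overlapped, though those of Oasl1 were separated by a narrow margin (5.21 against 5.26 CPM). Blocked values were -0.25 ± 0.08 for Oasl2 and -0.38 ± 0.16 for Oasl1, with adjusted p of 0.152 and 0.258 in edgeR's test. Isg20, a 3′ to 5′ exonuclease of single-stranded RNA, was at 2.20, 2.45 and 2.00 CPM against 2.95, 3.98 and 2.90 CPM, without overlap, a blocked value of -0.57 ± 0.18. Oas1a, a synthetase that activates RNase L, had a blocked value of -0.46 ± 0.16, with overlapping groups. The abundant RNA editor Adar stayed at 172, 176 and 178 CPM against 171, 190 and 182 CPM, and the kinase gene Eif2ak2, which encodes PKR, at 8.80, 7.77 and 10.9 CPM against 8.95, 8.68 and 9.26 CPM. Their blocked values, -0.05 ± 0.05 and 0.02 ± 0.13, lay within 1 SE of 0.

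Ifit2 and Ifit1, which encode RNA-binding proteins that curb translation, lay on opposite sides. Ifit2 was at 1.28, 2.10 and 1.51 CPM with EPZ5676 and 0.864, 0.952 and 1.04 CPM with ethanol, higher in every pair and without overlap. Its log2 fold change was 0.77 ± 0.25 in the blocked fit (edgeR adjusted p = 0.174). Ifit1 was at 1.23, 0.925 and 0.975 CPM against 1.27, 1.46 and 1.23 CPM, a blocked value of -0.37 ± 0.25, with groups separated by a narrow margin. Both rest on low counts, about 1 to 2 CPM, and the difference between the 2 genes was not tested. Ifit3, the neighbour of Ifit2, had too few counts to test.

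Among the membrane and virus-directed effectors, Mx2, Rsad2 and Samd9l had lower values in every pair, and the interferon-induced transmembrane genes and tetherin had values near 0. Mx2, a dynamin-like GTPase gene, was at 3.99, 4.30 and 4.63 CPM with EPZ5676 and 6.10, 5.71 and 8.26 CPM with ethanol. The Mx2 groups did not overlap, with a blocked value of -0.62 ± 0.15 (edgeR adjusted p = 0.0994). Mx1, its paralog, had a blocked value of -0.12 ± 0.23 and overlapping groups; reads of close paralogs can be split between them. Rsad2, which encodes viperin, was at 14.1, 6.02 and 11.5 CPM against 16.0, 7.45 and 19.6 CPM, lower in every pair and lowest in both replicate 2 libraries. Its blocked value was -0.42 ± 0.14, and that of its neighbour Cmpk2, a nucleotide kinase gene, -0.35 ± 0.30. Samd9l, a translation-inhibiting restriction factor gene, was at 1.38, 1.31 and 1.22 CPM against 1.78, 1.62 and 1.95 CPM without overlap, at -0.44 ± 0.22.

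The 3 interferon-induced transmembrane genes, which block fusion of viruses with endosomes and are expressed in many germline and stem cells, are neighbours and paralogs. Ifitm2 was at 25.2, 22.2 and 28.4 CPM with EPZ5676 and 23.1, 24.4 and 23.3 CPM with ethanol, and Ifitm3 at 23.6, 14.6 and 27.9 CPM against 18.6, 19.4 and 22.2 CPM. Ifitm1 was at 26.1, 7.84 and 22.1 CPM against 22.3, 10.8 and 25.0 CPM, so that its difference between replicate 2 and the other libraries exceeded that between treatments. Bst2, which encodes tetherin, was at 27.5, 20.7 and 21.1 CPM against 27.2, 19.6 and 28.2 CPM. All 4 had overlapping groups and blocked values between -0.12 and 0.09.

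The 2 tested immunity-related GTPase genes, of a family that acts against intracellular parasites and bacteria, showed the clearest separation of the groups. Iigp1, of the same family, had too few counts to test. Igtp was at 8.54, 10.0 and 8.62 CPM with EPZ5676 and 14.1, 13.5 and 14.8 CPM with ethanol. The means were 9.05 ± 0.818 and 14.1 ± 0.633 CPM (SD, n = 3), and the log2 fold change was -0.64 ± 0.13 without the block, where edgeR gave an unadjusted p of 0.00104 and an adjusted p of 0.454. With the block it was -0.64 ± 0.12, a 1.55-fold difference (edgeR adjusted p = 0.0519). Irgm1 was at 22.4, 21.7 and 18.8 CPM against 25.2, 25.4 and 24.6 CPM, also without overlap, at -0.26 ± 0.09. Igtp shares 162 exonic bases with Irgm2 on the same strand in GENCODE M21, so part of its reads may have been assigned elsewhere or dropped.

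Of the other induced genes, Ifi35, an interferon-induced leucine zipper protein gene, was at 22.6, 16.0 and 25.5 CPM with EPZ5676 and 33.1, 20.5 and 35.8 CPM with ethanol. It was lower in every pair, and ethanol replicate 2 lay within the EPZ5676 range, so that the unadjusted p was 0.0699 without the block and 0.000526 with it in edgeR's test. Lgals3bp was at 3.58, 3.18 and 3.70 CPM against 3.05, 4.20 and 4.41 CPM, and Xaf1, a pro-apoptotic gene, at 2.76, 2.96 and 2.53 CPM against 3.46, 2.69 and 3.18 CPM. Their groups overlapped, as did those of Rtp4, which stood below 1.2 CPM in all libraries.

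**Figure D3:**
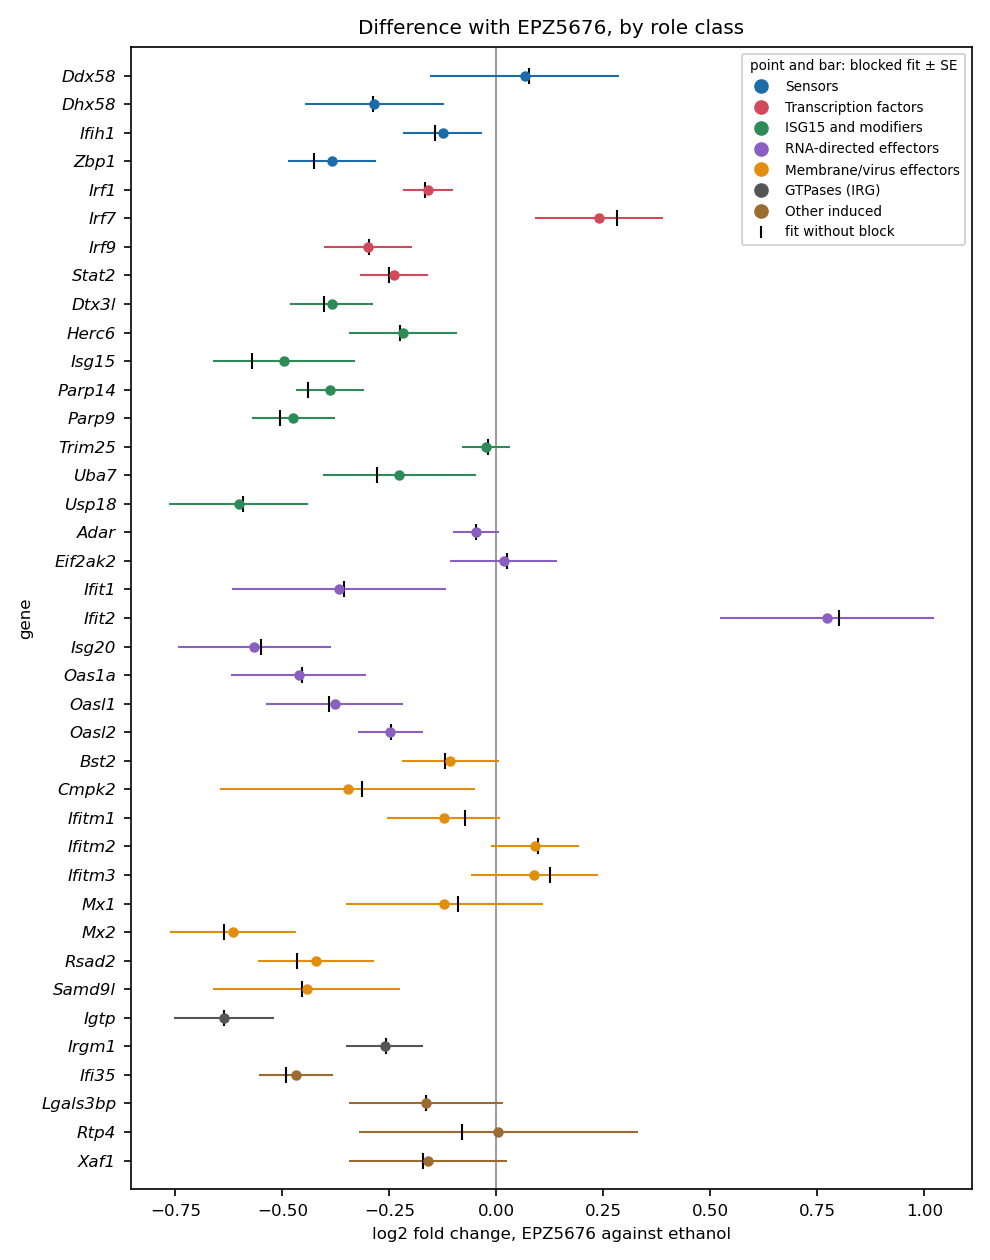
Log2 fold change of EPZ5676 against ethanol for the 39 tested members, grouped by role class; points and bars are the replicate-blocked fit ± SE, and black ticks the fit without it. Igtp, Mx2 and Usp18 lie near -0.6, Adar, Trim25 and Eif2ak2 near 0, and Ifit2 at 0.77.

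Set side by side, the role classes had overlapping ranges, and no test of a difference between classes was made. Medians without the block were -0.22 for sensors, -0.21 for transcription factors, -0.42 for ISG15 and modifier genes, -0.30 for RNA-directed effectors, -0.12 for membrane and virus-directed effectors, -0.45 for the 2 tested immunity-related GTPases and -0.17 for the other induced genes. All 19 tested effectors together had a median of -0.26, with 15 of 19 negative. By limma-voom the membrane class stood at -0.35, so its place among the classes depends on the tool. Averaged over the 39 genes, EPZ5676 differed from ethanol by -0.20, -0.16 and -0.28 on the log2(CPM + 0.5) scale in pairs 1, 2 and 3.

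Several members differed more between replicates than between treatments. Both replicate 2 libraries were the lowest of the 6 for 12 of the 39 members, against 19.4% of all genes, and the highest for 3 members, Irf7, Irf9 and Trim25, against 18.8%. The 12 included Ifih1, Zbp1, Irf1, Isg15, Parp9, Parp14, Ifitm1, Rsad2 and Ifi35. Fibroblast markers also had mostly negative values: 24 of 28, with a median of -0.21, against 33 of 39 and -0.26 for the members, and none was at 0. Their mean differed between EPZ5676 and ethanol by -0.09, -0.41 and -0.0052 in pairs 1, 2 and 3, and that of the members by -0.20, -0.16 and -0.28. The fibroblast difference was largest in pair 2 and smallest in pair 3. For the members, the difference was smallest in pair 2 and largest in pair 3. The 7 peritubular and smooth muscle markers differed by 0.01, -0.30 and 0.24. Germ cell markers differed by -0.0044, 0.11 and -0.26 in the 3 pairs. The part of these cell types in the members' values was not tested, and in bulk RNA fewer cells of a type and less RNA per cell cannot be told apart.

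**Figure D4:**
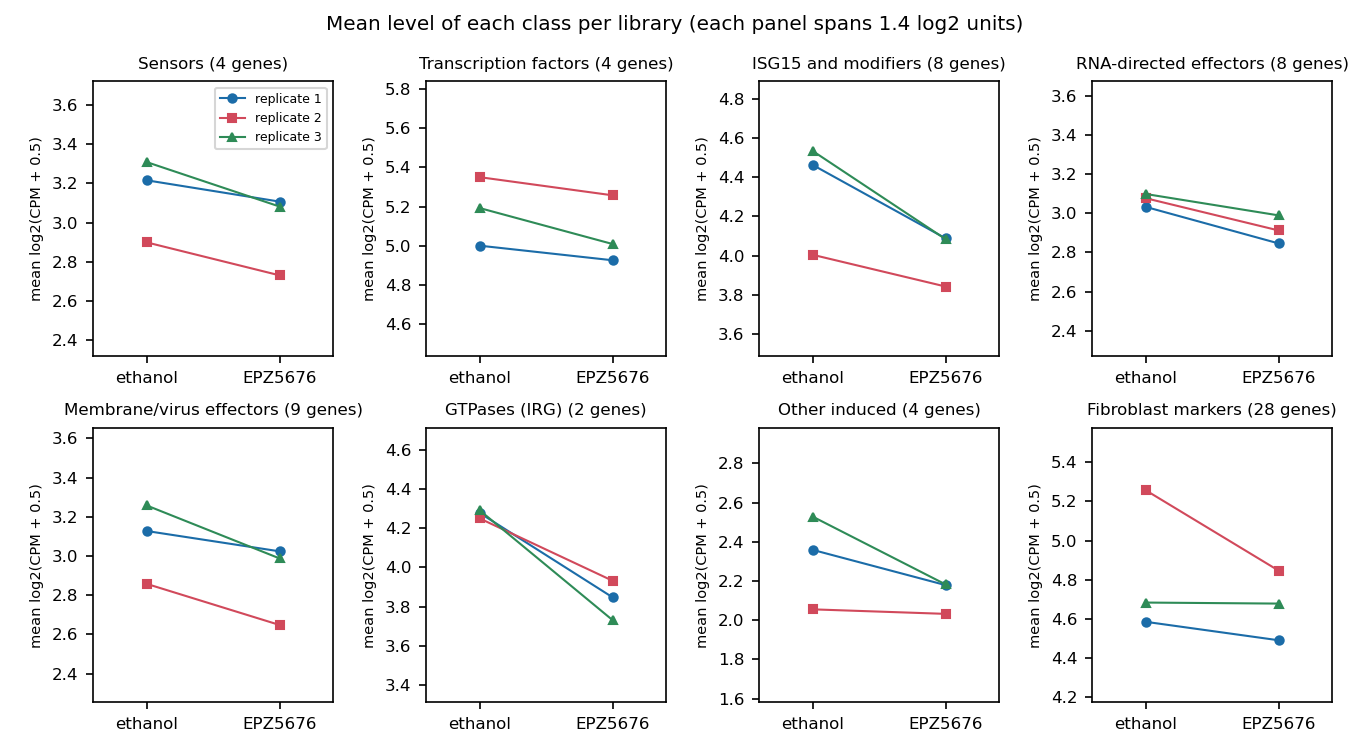
Mean log2(CPM + 0.5) of each role class and of the fibroblast markers in ethanol and EPZ5676 libraries; each line joins the libraries of 1 replicate number, and every panel spans the same log2 range. All lines of the role classes slope down, most steeply for the immunity-related GTPases, and the fibroblast lines differ by -0.09, -0.41 and -0.0052 in replicates 1, 2 and 3.

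Upstream of the members, most receptor and sensing genes had negative values, and the kinases stood closer to 0. Of 6 receptor genes 4 were negative in all 3 pairs, Ifnar2, Ifngr2, Ifnlr1 and Il10rb, and the median was -0.29. Ifnar1, the receptor chain with the most counts, was at 180, 160 and 188 CPM with EPZ5676 and 180, 160 and 183 CPM with ethanol, a blocked value of 0.01 ± 0.05. Ifngr2 was at 51.7, 41.9 and 56.0 CPM against 61.1, 56.3 and 67.8 CPM, without overlap, at -0.32 ± 0.07 in the blocked fit (edgeR adjusted p = 0.0782). The kinase genes Jak1 and Jak2 had blocked values of -0.09 ± 0.05 and 0.0034 ± 0.07, and Tyk2 0.18.

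Of 15 genes of nucleic acid sensing and signalling to IRF3, 13 were tested, 12 had negative values and 0 passed in either edgeR fit. Samhd1, a dNTPase that restricts retroviruses, was at 78.5, 71.9 and 74.0 CPM with EPZ5676 and 104, 85.9 and 112 CPM with ethanol. Its groups did not overlap, and the blocked value of -0.42 ± 0.07 had an edgeR adjusted p of 0.0504. Traf3, an adaptor on the route to IRF3, had a blocked value of -0.10 ± 0.06. Of 8 negative regulators, 3 had negative and 5 positive values without the block, with a median of 0.03. In this list 1 gene passed with the block (0.33% of all genes lower, 0.323% higher) and 0 without it (0%). Trim24, a transcriptional corepressor gene, fell from 155 ± 13.9 to 121 ± 2.55 CPM (SD, n = 3), with a blocked log2 fold change of -0.35 ± 0.06 (edgeR adjusted p = 0.0485). Trim24 was at 122, 123 and 118 CPM with EPZ5676 and 149, 171 and 145 CPM with ethanol. Ptpn11 and Socs3, which dampen JAK signalling, had blocked values of 0.07 ± 0.05 and -0.02 ± 0.09.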

How the data were processed

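Gene expression was measured by stranded poly(A) RNA-seq in 3 EPZ5676 and 3 ethanol libraries. The authors deposited whole-number counts per gene symbol; the submitters' processing notes name STAR, featureCounts, edgeR, Bowtie and mm9 without versions or roles. No source used here gives the annotation, the strand setting or how multi-mapping reads were treated. A table of repeat families was not used here.

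Counts were analysed in R 4.3.3. Genes were kept by filterByExpr, scaled by TMM and tested with edgeR 4.0.16 (quasi-likelihood, 2-sided, Benjamini-Hochberg over 14855 genes, threshold 0.05). Alternatives were DESeq2 1.42.0, limma-voom (limma 3.58.1), other scalings and filters, a replicate block and leaving out libraries. SEs were derived from the F statistic. The smallest chi-square per degree of freedom between any pair of libraries was 3.64, so no library copied another. The test was checked on simulated counts with fold changes larger than the members' median. That check does not show how often changes of the members' size are found.

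Same-numbered libraries' deviations from their group means correlated at 0.41, 0.61 and 0.34 across genes, all above the bound of 0.1 set for pairing. Replicates 1 and 3 also correlated across numbers (0.28 and 0.15), and no label states what the numbers mean. Residual degrees of freedom were 4 without the block and 2 with it.

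The members and lists were chosen with earlier results of these data known. Every member was accounted for. Values per library are given for members past the threshold, the 3 with the highest mean CPM in each class, those whose groups do not overlap (mean CPM 1 or more), and those at an unadjusted blocked p under 0.05 with a log2 fold change of at least 0.5 in size. Of pathway lists, called genes and the 2 with the most counts are named. Other members are named outside this rule, after their values were seen.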

Additional observations from a re-analysis of the deposited data

How the results depend on the processing

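Without the block, 0 genes and 0 members passed by edgeR, and this held with DESeq2 size factors, with library totals, without a filter, with a minimum of 1 CPM in 3 libraries, by limma-voom and without any single library. The replicate block, the paired fit, gave 97 genes (48 higher and 49 lower) and changed the call of 0 members. DESeq2 called 50 genes and 1 member (Igtp), and DESeq2 with the replicate block 293 genes and 4 members. The blocked fit gave 0 genes without replicate 1 in both groups, 795 genes and 9 members without replicate 2, and 761 genes and 4 members without replicate 3. Leaving out both replicate 2 libraries without a block gave 10 genes and 0 members. The cause of these differences was not tested. The median of the members was negative in every setting, between -0.36 and -0.17, the former without ethanol replicate 2 and the latter without ethanol replicate 3.

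Class medians moved by more than the spread between replicates as follows. Without a filter, the immunity-related GTPases stood at -0.53 over 3 genes rather than 2. The RNA-directed effectors stood at -0.24 over 11 genes rather than 8. These medians include the members with too few counts for the main test, and Igtp and Irgm1 were at -0.63 and -0.25 there. The RNA-directed median was -0.24 in the blocked fit without replicate 1, and -0.21 without replicate 2 both with and without the block. The other induced genes stood at -0.36 without replicate 2, with the block and without it. The membrane class stood at -0.35 by limma-voom, and from -0.37 to -0.11 with single libraries left out.

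Single members with small values changed sign. With the replicate block Rtp4 was at 0.0049, and at 0.028 with DESeq2 and the block. By limma-voom Rtp4 was at 0.0069, Eif2ak2 at -0.033 and Ifitm3 at -0.010. In the blocked fit without replicate 1, Ddx58 was at -0.14, Ifitm3 at -0.036, Trim25 at 0.0069 and Rtp4 at 0.083. Without replicate 2, Mx1 and Ifitm1 were at 0.021 and 0.024 with the block and at 0.041 and 0.027 without it. In the blocked fit without replicate 3, Rtp4 was at 0.34, Eif2ak2 at -0.094, Ifitm3 at -0.037, Ddx58 and Ifitm2 both at -0.0083 and Bst2 at 0.049. With single libraries left out, values ranged from -0.38 to 0.22 for Rtp4, -0.12 to 0.14 for Eif2ak2, -0.40 to 0.31 for Ifitm1, -0.082 to 0.36 for Ifitm3, -0.074 to 0.29 for Ddx58, -0.11 to 0.023 for Trim25, -0.30 to 0.12 for Mx1, -0.36 to 0.071 for Ifih1 and -0.20 to 0.69 for Irf7. The cause was not tested.

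Precision is limited by 3 libraries a group and, for members near 1 CPM such as Ifit1, Ifit2 and Samd9l, by few counts. Pairs rest on numbers whose meaning no label states. The role classes are small, so a median can move with 1 gene.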
